A study of Mus musculus with 75 samples.

Results

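The response of the mouse lung 14 days after a single intratracheal dose of bleomycin (BLEO) was described across all genes that passed a filter on low counts. The 12 libraries labelled Bleomycin day 14 and the 10 labelled Saline (CTRL) were taken out of the 75 libraries of the time course by library name, and 16221 of 55536 gene identifiers were tested. All animals were male C57BL/6JRj mice. The BLEO mice were 12 to 14 weeks old when dosed and entered the study only if they had lost between 5 and 17% of their body weight on day 6, so animals with a milder or a stronger acute reaction are not represented. The labels name the controls Saline, whereas the treatment protocol calls them untreated. Each library holds polyadenylated RNA of the inferior lobe of the right lung of 1 mouse, taken from lungs that had been lavaged, so cells that lavage removes are under-represented in both groups. The comparison asks which genes stood apart from healthy lung at a time when deposition of scar matrix is under way.

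Bleomycin breaks DNA strands and injures the alveolar epithelium and the capillaries beneath it. The gas-exchange surface consists of flat alveolar type 1 (AT1) cells and surfactant-producing alveolar type 2 (AT2) cells, the latter acting as progenitors that pass through a keratin-rich transitional state while they replace lost AT1 cells. Around the injury, blood monocytes enter the lung and mature into macrophages, and fibroblasts turn into contractile, collagen-secreting cells under transforming growth factor-beta (TGF-beta), which together build the provisional matrix and then the scar.

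Total counts per library were 9662299 to 14665247 in CTRL (median 10745113) and 9859808 to 13419601 on day 14 (median 11267629.5), so that levels in CPM (counts scaled to a common library total) rested on similar numbers of reads in both groups. Mitochondrial genes took 1.616 to 2.094% of the counts in CTRL and 0.865 to 1.732% on day 14. The lung identity of all libraries was seen in *Sftpc*, the AT2 surfactant protein C, which was counted at 12126 to 15394 CPM in CTRL (median 13751) and 3342 to 13545 on day 14 (median 6909.6). Day 14 mouse 8 stood apart from the other day 14 mice on the second principal component (-51.9 against -26.6 to 21.0), and counts that rest on this mouse are given with and without it. Marker genes of thymus, heart muscle, skeletal muscle and fat were also summed in each library, because neighbouring tissue can be taken with a lobe, and their values stand beside the results they touch.

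Of the genes tested, 5262 were upregulated (32.4%) and 4856 were downregulated (29.9%), which makes 10118 differentially expressed genes (DEGs, 62.4%; edgeR quasi-likelihood F test, Benjamini-Hochberg adjusted p below 0.05). Values after ± are standard errors (SE) throughout, and ranges run from the lowest to the highest mouse. At an unadjusted p below 0.05, 10613 genes passed. The near balance of the directions depends on the scaling between libraries: scaled by library size alone the counts were 4961 up and 5097 down, and with upper quartile factors 4825 up and 5224 down. Most differences were small. Of the DEGs, 5088 (50.3%) differed by less than 0.5 on the log2 scale, and the median log2 fold change (log2FC) was 0.50 for upregulated and -0.49 for downregulated genes.

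The large differences were unevenly divided between the directions. A log2FC of at least 2 was found for 473 upregulated genes, while 60 downregulated genes reached -2. At 4 the numbers were 73 and 2. In 1535 genes (9.46%) all 12 day 14 mice lay above all 10 CTRL mice, and in 998 genes (6.15%) all lay below. The spread between mice was wider on day 14 in 13787 genes (85%), with a median SD of 0.27 log2 CPM on day 14 and 0.17 in CTRL.

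**Figure D1:**
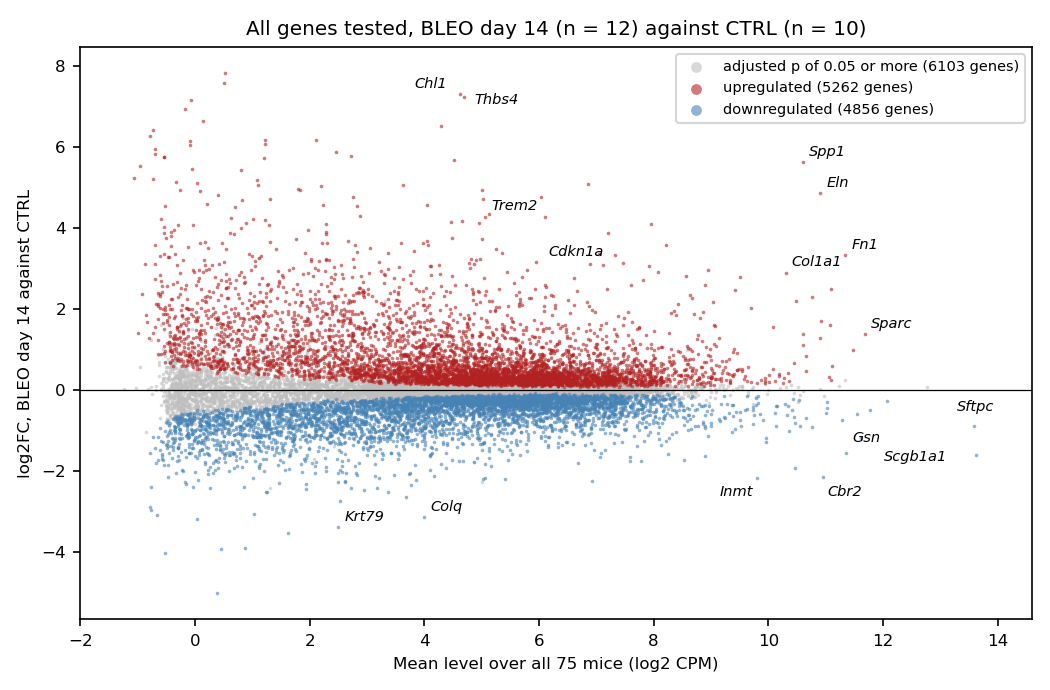
Each point is 1 of the 16221 genes tested, with its mean level over all 75 mice (log2 CPM) on the horizontal axis and its log2FC for BLEO day 14 (n = 12) against CTRL (n = 10) on the vertical axis; red marks the 5262 upregulated, blue the 4856 downregulated genes and grey the rest. Beyond 4 on the vertical axis lie 73 upregulated genes against 2 downregulated ones, with *Spp1*, *Eln* and *Fn1* both highly expressed and far above the line and *Scgb1a1*, *Cbr2* and *Gsn* highly expressed and below it.

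By type of gene, 64.2% of the 14555 protein-coding genes were DEGs, 4989 of them upregulated and 4359 downregulated. Long intergenic noncoding RNA genes (67 up and 145 down of 380) and antisense genes (46 up and 108 down of 301) were more often downregulated than upregulated. Since the strand setting of the counting is not given in the sources used here, counts of an antisense gene cannot be told apart from those of its partner. The variable segments of immunoglobulins showed the opposite imbalance, with 31 of 125 upregulated and 0 downregulated. Their upregulated share (24.8%) was below the 32.4% of all genes. With genes placed in 5 equal classes by mean level, the share of DEGs ran from 51.2% in the lowest class to 68.5% in the highest.

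A mean level above 1 log2 CPM was found for 14038 genes. From these, genes were selected with an adjusted p below 0.05, a symbol that is not a clone name and no overlap between day 14 and CTRL mice. In this selection the highest log2FC belonged to *Chl1*, a neuronal cell adhesion molecule of the L1 family (chr6:103510586-103750211, plus strand, GRCm38). It was close to absent in CTRL and present in every day 14 mouse (0.0928 to 0.571 CPM in CTRL, median 0.389, and 9.35 to 169.7 on day 14, median 50.9, log2FC 7.30 ± 0.83, adjusted p = 1.39e-11). The next was *Thbs4*, a thrombospondin of tendon and muscle (chr13:92751590-92794818, minus strand), at 0.0795 to 0.719 CPM in CTRL (median 0.367) and 18.3 to 99.7 on day 14 (median 64.9), with log2FC 7.23 ± 0.69 (adjusted p = 4.82e-14). *Cemip*, which binds and degrades hyaluronan, followed at 0.0955 to 0.954 CPM in CTRL (median 0.485) and 8.78 to 75.4 on day 14 (median 48.3), with log2FC 6.53 ± 0.76 (adjusted p = 3.05e-11). That all day 14 mice exceeded all CTRL mice for these 3 genes was a condition of the selection. The day 14 mice differed widely among themselves.

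Other genes near zero in CTRL that reached measurable levels encoded secreted or surface proteins. *Tnfsf18*, the ligand of the T cell receptor GITR, was counted at 0 to 0.409 CPM in CTRL (median 0.0913) and 0.993 to 31.9 on day 14 (median 7.32), with log2FC 6.18 ± 0.99 (adjusted p = 1.91e-07). *Ereg*, the epidermal growth factor receptor ligand epiregulin, was counted at 0 to 0.626 CPM in CTRL (median 0.241) and 1.72 to 77.7 on day 14 (median 7.33), with log2FC 5.78 ± 0.73 (adjusted p = 4.25e-10). *Gpr37*, an orphan G protein-coupled receptor, and *Chodl*, a membrane lectin, had day 14 medians of 2.03 and 2.93 CPM against CTRL medians of 0.0444 and 0 CPM. In these 4 genes, and in *Chl1*, *Thbs4* and *Cemip* above, the CTRL medians lie at or near the 3 counts per library that mark the limit of detection (0.31 CPM), so the fitted fold changes depend on the prior count added to zero.

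At the other end stood genes with a narrow expression in healthy lung. *Krt79*, a keratin found in resident alveolar macrophages of the mouse (chr15:101929332-101940324, minus strand), was counted at 14 to 24.6 CPM in CTRL (median 17.7) and 0.084 to 5.58 on day 14 (median 1.47), with log2FC -3.38 ± 0.41 (adjusted p = 1.39e-10). *Colq*, the collagen-like tail that anchors acetylcholinesterase (chr14:31523082-31591343, minus strand), was counted at 25.2 to 45.9 CPM in CTRL (median 37.9) and 0.994 to 9.17 on day 14 (median 3.61), with log2FC -3.13 ± 0.43 (adjusted p = 3.06e-09). The glutamate receptor subunit *Gria1* was counted at 28.8 to 45.8 CPM in CTRL (median 36.7) and 2.23 to 11.3 on day 14 (median 5.38), with log2FC -2.63 ± 0.36 (adjusted p = 3.42e-09). That no day 14 mouse reached the lowest CTRL mouse for these genes was a condition of the selection. *Cst8*, *Bex2*, *Cpne5*, *Tmem121b*, *Ear1* and *Gsg1l* fell by 2.43 to 3.06 on the log2 scale. *Ackr4*, a scavenging chemokine receptor, had a log2FC of -2.73, but a gene on the opposite strand overlaps it, and reads of the 2 could not be separated here.

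When the genes of the same selection, without overlap between the groups, were ordered by p-value instead of by size, transcripts that had moved evenly in all mice came first. The smallest adjusted p among the upregulated genes belonged to *Cdkn1a*, which encodes the cell cycle inhibitor p21 (chr17:29090976-29100727, plus strand), at 22.6 to 49.3 CPM in CTRL (median 30.8) and 199.8 to 566 on day 14 (median 241), with log2FC 3.15 ± 0.15 (adjusted p = 1.99e-27). *Ccng1*, *Psrc1*, *Phlda3*, *Gdf15* and *Aen*, like *Cdkn1a* targets of the tumour suppressor p53, were also among the first 10, together with *Mmp2*, *Trem2*, *Col28a1* and *Brinp1*. On the downregulated side the first was *Map3k5*, the stress kinase ASK1, which was counted at 74.9 to 87.3 CPM in CTRL (median 77.8) and 42 to 58.4 on day 14 (median 52), with log2FC -0.65 ± 0.05 (adjusted p = 4.57e-16). *Ezh1* and *Cbx7*, subunits of Polycomb complexes that keep genes silent, *Ntn4*, a netrin of basement membranes, and *Rgmb*, a co-receptor for bone morphogenetic proteins (BMPs), fell by 0.71, 1.25, 0.78 and 0.71 on the log2 scale. An overlapping gene on the opposite strand makes the count of *Cbx7* uncertain.

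To describe what these genes belong to, 69 lists of cell type markers and pathway genes were used, with 1159 distinct genes tested. Of the listed genes, 116 were in more than 1 list, so the counts of such lists are not independent. The median log2FC of all genes tested was 0.01, against which a list's median is to be read, and a list's counts are to be read against the 32.4% of all genes upregulated and the 29.9% downregulated. In several lists the share called in either direction lay near or below the 62.4% of all genes, among them the other collagens (7 up and 2 down of 14), the adventitial fibroblast markers (7 and 2 of 14), the chemokine receptors (10 and 4 of 21) and the cholesterol synthesis genes (8 and 2 of 20). A bulk sample does not show which cells a transcript came from, and fewer cells of a type cannot be told apart from less RNA per cell.

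**Figure D2:**
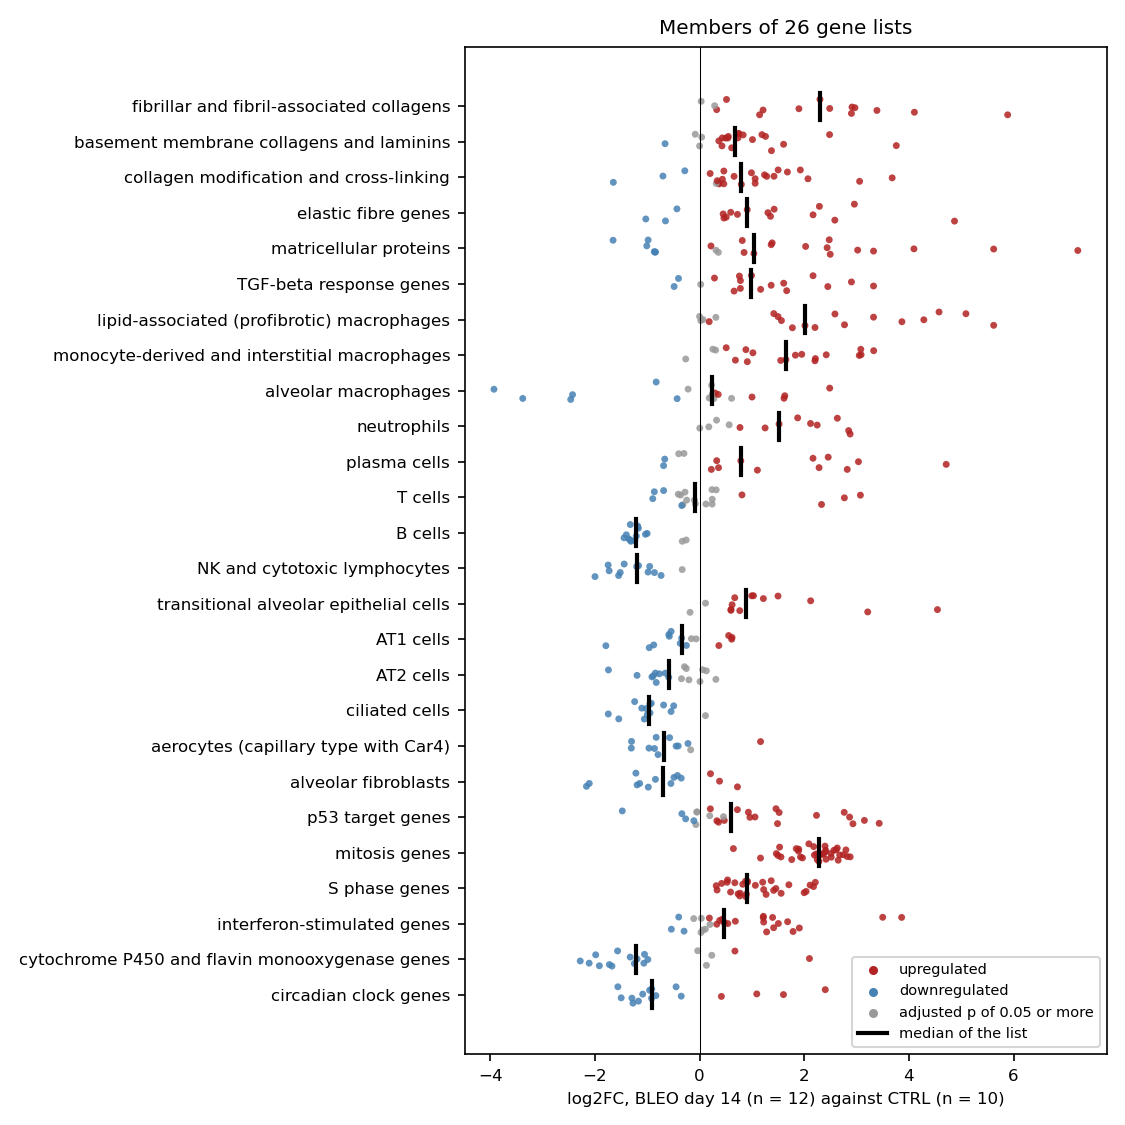
Every point is 1 gene tested of a list, placed by its log2FC for BLEO day 14 (n = 12) against CTRL (n = 10), for 26 of the 69 lists. Colour gives the call at an adjusted p of 0.05 and the black bar the median of the list; mitosis genes and fibrillar collagens lie to the right of zero, B cell, NK cell and ciliated cell markers to the left, and the alveolar macrophage and T cell lists are spread to both sides.

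Most fibrillar collagens, basement membrane genes and collagen cross-linking genes were upregulated. Of 15 fibrillar and fibril-associated collagens, 13 were upregulated and 0 downregulated (median log2FC 2.30), and in 11 of them all day 14 mice lay above all CTRL mice. *Col1a1*, one chain of the main collagen of scar (chr11:94936224-94953042, plus strand), was counted at 233 to 443 CPM in CTRL (median 325) and 1029.7 to 4465 on day 14 (median 1969.9), with log2FC 2.90 ± 0.33 (adjusted p = 2.36e-11). *Col3a1*, the collagen of reticular fibres (chr1:45311538-45349706, plus strand), was counted at 449.9 to 869 CPM in CTRL (median 621) and 2155 to 5252 on day 14 (median 3471), with log2FC 2.49 ± 0.19 (adjusted p = 1.15e-17). The groups did not overlap for either gene, and the highest day 14 mouse had several times the *Col1a1* level of the lowest.

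Minor fibrillar collagens were among the genes that rose, and 2 of the 15 genes of this list did not pass the test. *Col5a1* and *Col5a2*, chains of the collagen that starts fibrils, had a log2FC of 2.91 ± 0.33 and 2.97 ± 0.29. *Col11a1*, normally a cartilage collagen, was counted at 0 to 0.395 CPM in CTRL (median 0.0953) and 0.738 to 27.9 on day 14 (median 6.44), with log2FC 5.89 ± 1.15 (adjusted p = 1.07e-05), with CTRL at the limit of detection. *Col24a1*, a collagen of developing bone and cornea, was counted at 0.19 to 0.928 CPM in CTRL (median 0.439) and 3.36 to 15.5 on day 14 (median 7.49), with log2FC 4.10 ± 0.44 (adjusted p = 2.75e-12). *Col14a1*, a fibril-associated collagen of adventitial fibroblasts, did not pass the test (log2FC 0.03 ± 0.12).

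Of 22 basement membrane collagens and laminins, 18 were upregulated and 1 downregulated (median 0.67). *Col15a1*, found beneath endothelium, was counted at 10.3 to 25.9 CPM in CTRL (median 17.4) and 60.3 to 158 on day 14 (median 95.2), with log2FC 2.48 ± 0.27 (adjusted p = 2.3e-12). *Col4a1* and *Col4a2*, the ubiquitous chains of basement membranes, had a log2FC of 1.61 and 1.37; the genes lie head to head and overlap, so that their counts are not independent. Of 14 other collagens 7 were upregulated and 2 downregulated, with the 3 beaded-filament chains *Col6a1* (log2FC 1.08), *Col6a2* (1.22) and *Col6a3* (1.87), the anchoring fibril collagen *Col7a1* (2.08) and *Col28a1* (3.24) among the former.

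Most elastic fibre genes were upregulated, and 3 were downregulated. *Eln*, which encodes tropoelastin (chr5:134702593-134747323, minus strand), was counted at 126 to 207 CPM in CTRL (median 149) and 1839.7 to 8909.9 on day 14 (median 3504), with log2FC 4.87 ± 0.41 (adjusted p = 8.67e-16). Per length, its mean rose from 19 to 555 RPKM (CPM per kilobase of exon), a 29.3-fold difference of the mean CPM. For comparison on the same RPKM scale, *Col1a1* rose from 50.4 to 377, *Col3a1* from 66 to 370.1 and *Fn1* from 45.5 to 455. The list held 17 genes, of which 14 were upregulated. *Fbn1*, the scaffold of microfibrils, was counted at 101 to 194 CPM in CTRL (median 140.0) and 425 to 1687 on day 14 (median 768), with log2FC 2.59 ± 0.24 (adjusted p = 2.3e-14). *Ltbp2*, a microfibril protein of the latent TGF-beta binding family, was counted at 141 to 182 CPM in CTRL (median 165) and 481 to 1096 on day 14 (median 735), with log2FC 2.17 ± 0.26 (adjusted p = 1.18e-10). *Fbln5*, needed to assemble elastin, had a log2FC of 0.47 with overlapping groups, and *Fbln1* fell by 0.43 on the log2 scale.

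Among 25 genes of collagen modification and cross-linking, 21 were upregulated and 3 downregulated (median 0.80). *Lox*, the lysyl oxidase that joins collagen and elastin, was counted at 51.8 to 81.4 CPM in CTRL (median 62.4) and 182 to 1091 on day 14 (median 390.0), with log2FC 3.06 ± 0.34 (adjusted p = 6.34e-12). *P4ha3*, a prolyl hydroxylase subunit, was counted at 1.78 to 3.68 CPM in CTRL (median 2.25) and 13.4 to 51.8 on day 14 (median 28.9), with log2FC 3.68 ± 0.40 (adjusted p = 2.42e-12). All day 14 mice lay above all CTRL mice for these 2 genes, and likewise for *Loxl1* (log2FC 1.68), *Loxl2* (2.07), the prolyl hydroxylase *P3h1* (1.28) and the procollagen protease *Adamts2* (1.93).

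Matricellular proteins, which sit in matrix and signal to cells, divided into 15 upregulated and 6 downregulated of 23. *Tnc*, tenascin-C of provisional matrix, was counted at 16.5 to 40.9 CPM in CTRL (median 26.6) and 175 to 970.2 on day 14 (median 379.9), with log2FC 4.10 ± 0.40 (adjusted p = 1.27e-13). *Fn1*, fibronectin (chr1:71585520-71653200, minus strand), was counted at 405 to 654 CPM in CTRL (median 522) and 1944 to 10834 on day 14 (median 4725), with log2FC 3.32 ± 0.36 (adjusted p = 2.44e-12). *Sparc*, a collagen-binding protein that was already high in healthy lung, was counted at 1551 to 1974 CPM in CTRL (median 1756) and 3615 to 5702 on day 14 (median 4467), with log2FC 1.39 ± 0.10 (adjusted p = 1.9e-18). The connective tissue growth factor gene *Ccn2* was counted at 229 to 334 CPM in CTRL (median 285) and 309 to 1673 on day 14 (median 505) with overlapping groups (log2FC 1.37 ± 0.22, adjusted p = 1.84e-07). *Postn*, periostin, differed by 0.22 ± 0.08 (adjusted p = 0.0105), which is a small step beside the others.

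Of 21 matrix metalloproteinases and tissue inhibitors, 13 were upregulated and 3 downregulated. *Timp1*, a broad inhibitor of the metalloproteinases, was counted at 3.78 to 6.52 CPM in CTRL (median 5.31) and 42.5 to 296 on day 14 (median 127), with log2FC 4.78 ± 0.51 (adjusted p = 2.29e-12). *Mmp2*, a gelatinase of fibroblasts, was counted at 79.2 to 133 CPM in CTRL (median 109) and 404 to 691 on day 14 (median 533), with log2FC 2.34 ± 0.14 (adjusted p = 5.39e-23). *Mmp14*, the membrane enzyme that activates the *Mmp2* product, had a log2FC of 2.59 and *Timp2* one of 0.19. Proteoglycans were divided, with 8 upregulated and 5 downregulated of 19: *Bgn* (biglycan, log2FC 1.10) and *Vcan* (versican, 2.04) rose, while *Ogn* (osteoglycin) and *Ecm2* fell by 1.35 and 1.32 on the log2 scale.

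Plasminogen activation and coagulation genes were mostly higher, 17 of 24 upregulated and 3 downregulated. *Plau*, which encodes the plasminogen activator urokinase, was counted at 6.4 to 16 CPM in CTRL (median 11.7) and 22.5 to 55.3 on day 14 (median 34.1), with log2FC 1.69 ± 0.19 (adjusted p = 1.1e-11). Tissue factor (*F3*) had a log2FC of 0.69 with overlapping groups, coagulation factor X (*F10*) one of 1.79, and the von Willebrand factor gene *Vwf* one of 0.56.

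**Figure D3:**
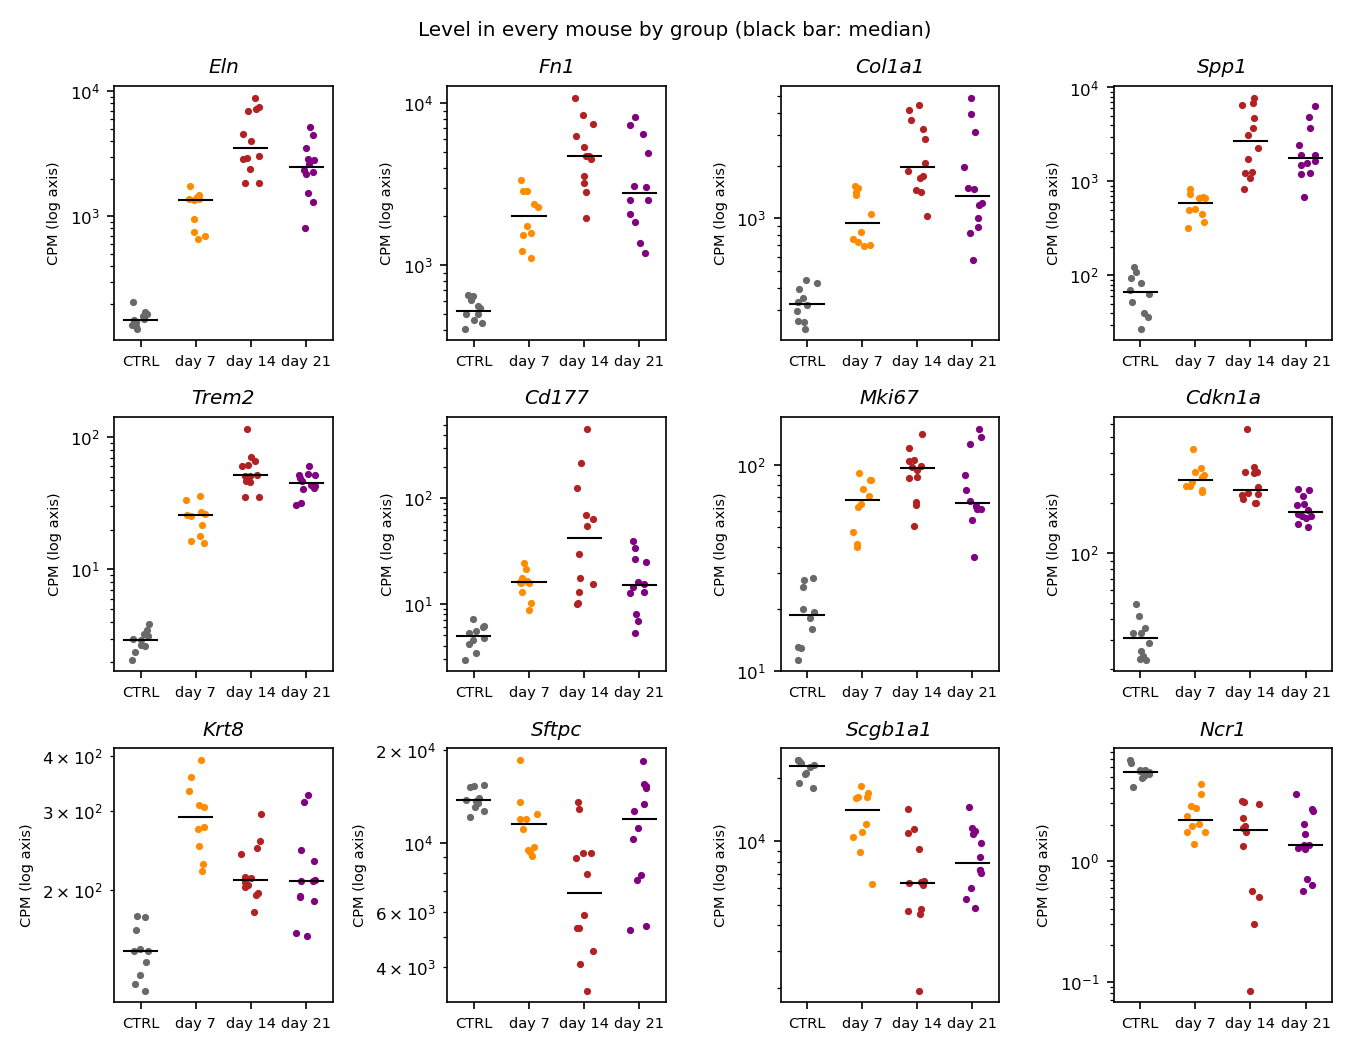
Each point is 1 mouse, with its level in CPM on a log axis, for 12 genes in CTRL (n = 10) and on BLEO day 7 (n = 10), day 14 (n = 12) and day 21 (n = 12); the black bar is the median. For *Eln*, *Fn1*, *Col1a1*, *Spp1*, *Trem2*, *Cd177*, *Mki67*, *Cdkn1a* and *Krt8* all day 14 mice lie above all CTRL mice, for *Scgb1a1* and the NK cell receptor gene *Ncr1* all lie below, and for *Sftpc* 2 of the 12 lie within the CTRL range.

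The 3 TGF-beta ligand genes rose, each with a log2FC below the median of the fibrillar collagens. *Tgfb1* was counted at 61 to 85.6 CPM in CTRL (median 77) and 90.2 to 132 on day 14 (median 108), with log2FC 0.53 ± 0.09 (adjusted p = 2.87e-07). *Tgfb2* had a log2FC of 0.73 and *Tgfb3* one of 1.06, and for all 3 ligands every day 14 mouse exceeded every CTRL mouse. Of the receptors, *Tgfbr2* rose (log2FC 0.71), whereas the co-receptor *Tgfbr3*, betaglycan, fell, at 135 to 181 CPM in CTRL (median 150.3) and 60.3 to 113 on day 14 (median 70.7), with log2FC -0.98 ± 0.11 (adjusted p = 5.35e-12). The list of ligands, activators, receptors and SMAD proteins held 14 upregulated and 6 downregulated genes of 24 (median 0.33).

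Of 17 TGF-beta response genes 14 were upregulated and 2 downregulated (median 0.99). Those that rose included *Tgfbi* (log2FC 1.61), the feedback inhibitor *Pmepa1* (1.67), *Snai1* (0.99) and *Cdkn2b* (0.76). *Smad7*, a negative regulator of the pathway (log2FC -0.48), and *Cdh2* (-0.40) fell, both named after their values were seen.

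Activins, BMPs and their inhibitors went both ways, with 12 upregulated and 10 downregulated of 28. Secreted antagonists of the family stood out in size. *Grem1*, the BMP antagonist gremlin 1, was counted at 0.307 to 1.28 CPM in CTRL (median 0.589) and 6.07 to 102 on day 14 (median 29.2), with log2FC 5.69 ± 0.87 (adjusted p = 6.25e-08). *Fst*, the activin antagonist follistatin, was counted at 3.52 to 11.7 CPM in CTRL (median 5.35) and 14.5 to 232 on day 14 (median 48.3), with log2FC 3.72 ± 0.56 (adjusted p = 5.15e-08), and *Inhba*, the activin A subunit that it binds, at 1.81 to 3.87 CPM in CTRL (median 2.87) and 7.38 to 97.8 on day 14 (median 27.5), with log2FC 3.57 ± 0.55 (adjusted p = 6.58e-08). These genes are low in healthy lung and had no overlap between the groups. *Nog*, noggin, had a log2FC of 3.35.

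Wnt genes were likewise divided (16 up and 13 down of 34). *Sfrp1*, a secreted Wnt antagonist, was counted at 20.9 to 29.99 CPM in CTRL (median 27.1) and 127 to 439 on day 14 (median 258), with log2FC 3.36 ± 0.32 (adjusted p = 2.56e-14), and *Frzb*, a related antagonist near zero in CTRL, at 0 to 0.571 CPM in CTRL (median 0.188) and 1.97 to 13 on day 14 (median 8.12), with log2FC 5.03 ± 0.62 (adjusted p = 1.76e-10). The ligands *Wnt5a* and *Wnt7b* had a log2FC of 1.02 and 1.54. In the list of VEGF, PDGF, FGF and IGF ligands and receptors 15 genes were upregulated and 15 downregulated of 37. *Igf1*, a growth factor made by macrophages and fibroblasts, was counted at 15.1 to 28.4 CPM in CTRL (median 20.4) and 83.9 to 200.3 on day 14 (median 141), with log2FC 2.77 ± 0.28 (adjusted p = 4.94e-13). *Vegfa* and its receptor gene *Kdr* fell by 0.54 and 0.97, and the receptors *Fgfr2* and *Fgfr4* by 1.29 and 1.19 on the log2 scale.

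Markers of fibroblast subsets separated into a healthy and a fibrotic set. Of 18 markers of fibrotic fibroblasts and myofibroblasts, 16 were upregulated and 0 downregulated (median 1.47), whereas 11 of 14 markers of alveolar fibroblasts were downregulated and 3 upregulated (median -0.69). *Cthrc1*, which marks collagen-producing fibroblasts of the injured lung, was counted at 2.51 to 5.94 CPM in CTRL (median 4.53) and 11.2 to 46.6 on day 14 (median 24.3), with log2FC 2.50 ± 0.44 (adjusted p = 1.35e-06). *Inmt*, a methyltransferase of alveolar fibroblasts, was counted at 1552 to 2425 CPM in CTRL (median 1868) and 186 to 738 on day 14 (median 441), with log2FC -2.16 ± 0.28 (adjusted p = 5.07e-10). *Itga8*, an integrin of the same cells, was counted at 429 to 499.8 CPM in CTRL (median 460.3) and 111 to 279.8 on day 14 (median 209), with log2FC -1.21 ± 0.15 (adjusted p = 1.04e-10). Neither of the latter had a day 14 mouse within the CTRL range. The fibroblast transcription factor gene *Tcf21* fell by 0.98 and *Ces1d* by 1.14 on the log2 scale.

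Adventitial fibroblast markers included 7 upregulated and 2 downregulated genes of 14. *Mfap5*, a microfibril protein, was counted at 34.5 to 52.9 CPM in CTRL (median 42.5) and 85.9 to 153 on day 14 (median 113), with log2FC 1.43 ± 0.17 (adjusted p = 4.43e-11), and *Pi16*, a marker of the resting adventitial state, had a log2FC of -0.46 ± 0.21 (adjusted p = 0.0463). Genes of smooth muscle cells and pericytes were divided (5 up and 6 down of 16). *Actg2* was among the 5 that rose (log2FC 0.51). *Myh11*, the smooth muscle myosin, fell, at 197 to 314 CPM in CTRL (median 257) and 106 to 240.4 on day 14 (median 159), with log2FC -0.64 ± 0.11 (adjusted p = 4.52e-07), and the actin-binding *Cnn1* and *Lmod1* fell by 0.50 and 0.54 on the log2 scale. Of the mesothelial list, 10 genes, *Msln* (mesothelin) was the 1 upregulated gene, at 25 to 87.4 CPM in CTRL (median 68.5) and 92.8 to 328 on day 14 (median 173), with log2FC 1.41 ± 0.25 (adjusted p = 2.16e-06), and 3 genes were downregulated.

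Macrophage markers differed by subset. Of 19 markers of lipid-associated macrophages, the CD9- and TREM2-bearing cells of fibrotic tissue, 15 were upregulated and 0 downregulated (median 2.01), and of 19 markers of monocyte-derived and interstitial macrophages 16 and 0 (median 1.65). *Spp1*, osteopontin (chr5:104435118-104441050, plus strand), was counted at 27 to 122 CPM in CTRL (median 66.8) and 826 to 7806 on day 14 (median 2669), with log2FC 5.62 ± 0.55 (adjusted p = 7.36e-14). Its mean went from 42.1 to 2071 RPKM. *Trem2*, a lipid receptor (chr17:48346401-48354147, plus strand), was counted at 2.08 to 3.9 CPM in CTRL (median 2.94) and 35.4 to 116 on day 14 (median 51.5), with log2FC 4.28 ± 0.29 (adjusted p = 2.2e-20). *Gpnmb*, a glycoprotein of lysosome-rich macrophages, was counted at 14.3 to 22.3 CPM in CTRL (median 16.3) and 135 to 468 on day 14 (median 207), with log2FC 3.87 ± 0.36 (adjusted p = 1.37e-14). *Msr1*, a scavenger receptor, was counted at 2.2 to 4.41 CPM in CTRL (median 3.38) and 24.5 to 135 on day 14 (median 48.6), with log2FC 4.36 ± 0.38 (adjusted p = 2.53e-15).

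The complement genes *C1qa*, *C1qb* and *C1qc*, which tissue macrophages transcribe together, had a log2FC of 3.08, 3.33 and 3.10. *Fcgr1*, the high-affinity receptor for immunoglobulin G, was counted at 2.97 to 4.77 CPM in CTRL (median 3.9) and 18.6 to 48.9 on day 14 (median 31.2), with log2FC 3.05 ± 0.26 (adjusted p = 3.88e-16). *Cd68*, a lysosomal protein of all macrophages, was counted at 24.2 to 29.6 CPM in CTRL (median 26.6) and 94.4 to 169 on day 14 (median 118), with log2FC 2.21 ± 0.19 (adjusted p = 9.62e-16), with no mouse of either group in the range of the other. The monocyte chemokine receptor genes *Ccr2* and *Cx3cr1* had log2FC of 0.89 and 0.91, with overlapping groups.

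Resident alveolar macrophage markers did not move as 1 set: 6 were upregulated and 6 downregulated of 18 (median 0.24). *Ear1*, a ribonuclease of these cells, was counted at 8.35 to 16.6 CPM in CTRL (median 11.5) and 0.398 to 4.27 on day 14 (median 2.06), with log2FC -2.46 ± 0.27 (adjusted p = 5.13e-12), and *Krt79* fell as given above. *Siglecf*, their sialic acid receptor, did not pass the test (log2FC -0.22 ± 0.18), nor did *Fabp4* (0.61 ± 0.56). The downregulated members included *Car4* (log2FC -0.83), which is also in the aerocyte list. The lysosomal genes *Ctsk* and *Atp6v0d2*, which other macrophages also transcribe, had a log2FC of 2.49 and 1.61. Since lavage removes alveolar macrophages in particular, the level of these markers reflects the cells left behind.

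Chitinase-like and alternative activation genes held 10 upregulated genes and 1 downregulated of 13 (median 1.36). *Retnla*, the resistin-like molecule induced by interleukins 4 and 13, was counted at 20.02 to 47.9 CPM in CTRL (median 32.1) and 128 to 679 on day 14 (median 438), with log2FC 3.57 ± 0.40 (adjusted p = 9.07e-12). *Arg1*, arginase 1, was counted at 1.04 to 4.29 CPM in CTRL (median 1.79) and 4.59 to 186 on day 14 (median 19.5), with log2FC 4.57 ± 0.70 (adjusted p = 6.79e-08), with the highest value in mouse 8. *Chil3*, a chitinase-like protein of macrophages, overlapped between groups (240.5 to 716 CPM in CTRL, median 318, and 339.9 to 1589 on day 14, median 608, log2FC 1.003 ± 0.30, adjusted p = 0.00261). *Mrc1*, the mannose receptor, had a log2FC of 1.83 and *Il4ra*, the shared receptor of interleukins 4 and 13, one of 1.36.

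Chemokine ligands were upregulated in 20 of 30 cases and downregulated in 2 (median 1.24). *Ccl2*, the main attractant of monocytes, was counted at 0.286 to 1.15 CPM in CTRL (median 0.783) and 2.83 to 36.5 on day 14 (median 9.41), with log2FC 4.29 ± 0.58 (adjusted p = 2.31e-09). *Ccl8*, made by macrophages, was counted at 1.03 to 2.67 CPM in CTRL (median 1.91) and 6.42 to 62.1 on day 14 (median 17.6), with log2FC 3.63 ± 0.36 (adjusted p = 2.4e-13). *Ccl9* and *Ccl6*, chemokines of myeloid cells in rodents, had a log2FC of 2.97 and 1.86. *Ppbp*, a platelet chemokine, fell by 1.39 on the log2 scale, alongside 5 downregulated genes of 8 in the platelet list. Among 21 chemokine receptors 10 were upregulated and 4 downregulated, with *Ccr1* at a log2FC of 2.60.

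Of 30 interleukins, TNF family members and colony-stimulating factors, 15 were upregulated and 6 downregulated. *Il6*, a cytokine of the acute phase, was counted at 0 to 0.407 CPM in CTRL (median 0.154) and 0.832 to 7.89 on day 14 (median 1.97), with log2FC 3.62 ± 0.56 (adjusted p = 8.55e-08), which is a low level even on day 14. *Lif*, of the same cytokine family, was counted at 2.58 to 6.59 CPM in CTRL (median 4.42) and 22 to 53.3 on day 14 (median 30.2), with log2FC 2.86 ± 0.21 (adjusted p = 2.47e-18). *Il1b* overlapped between groups (log2FC 0.87), while its decoy *Il1rn*, the receptor antagonist, did not (1.91). Cytokine receptors were upregulated in 19 of 32 and downregulated in 4. In the complement list 15 genes were upregulated and 4 downregulated of 24; the central component *C3* had a log2FC of 0.52 and the anaphylatoxin receptor *C3ar1* one of 3.11.

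Neutrophil markers, 9 upregulated and 0 downregulated of 13, rested in part on single mice. *S100a8*, an abundant protein of neutrophil cytoplasm, was counted at 7.55 to 26.7 CPM in CTRL (median 16.6) and 8.04 to 159 on day 14 (median 14.3), with log2FC 0.77 ± 0.31 (adjusted p = 0.0274); mouse 8 was at 159, and without it the log2FC was 0.02 and the call was lost. Without mouse 8 the list held 7 upregulated genes, and its median went from 1.52 to 0.91. *Retnlg*, a second neutrophil transcript, had a log2FC of 1.87 with and 0.91 without mouse 8, and *Il1r2*, a decoy receptor for interleukin 1, one of 2.85 and 2.05. *Mmp8*, the neutrophil collagenase, was above the CTRL range in all day 14 mice (1.98 to 4.94 CPM in CTRL, median 2.91, and 6.56 to 54.6 on day 14, median 17.9, log2FC 2.88 ± 0.32, adjusted p = 4.57e-12). *Cd177*, a surface protein of activated neutrophils (chr7:24743983-24760311, minus strand), was counted at 2.93 to 7.19 CPM in CTRL (median 4.96) and 9.94 to 459 on day 14 (median 41.9), with log2FC 4.17 ± 0.49 (adjusted p = 4.87e-11), with 459 CPM in mouse 1, 218 CPM in mouse 3 and 125 CPM in mouse 8.

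Most B cell markers and most NK cell markers were downregulated. Of 15 B cell markers 13 were downregulated and 0 upregulated (median -1.21), and of 13 markers of natural killer (NK) and cytotoxic cells 12 and 0 (median -1.20). *Cd79a*, a signalling chain of the B cell receptor, was counted at 18.8 to 42.4 CPM in CTRL (median 29.97) and 2.88 to 25.3 on day 14 (median 12), with log2FC -1.35 ± 0.28 (adjusted p = 3.01e-05). *Klra8*, an inhibitory NK cell receptor, was counted at 2.77 to 5.84 CPM in CTRL (median 4.35) and 0.0994 to 1.89 on day 14 (median 1.2), with log2FC -1.996 ± 0.29 (adjusted p = 1.61e-08). *Prf1*, the pore-forming protein perforin, was counted at 4.71 to 10.7 CPM in CTRL (median 8.09) and 0.336 to 6.65 on day 14 (median 2.89), with log2FC -1.51 ± 0.27 (adjusted p = 1.31e-06). The red cell list fell as well (7 of 7, median -1.06), including the haemoglobin genes *Hba-a1* (log2FC -1.02) and *Hbb-bs* (-0.93). The part of blood left in the vessels in the lymphocyte results was not tested.

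T cell markers did not move as a set (4 up and 4 down of 20, median -0.09), and the invariant chain *Cd3e* did not pass the test (3.71 to 6.99 CPM in CTRL, median 4.83, and 1.09 to 10.1 on day 14, median 3.71, log2FC -0.24 ± 0.22, adjusted p = 0.327). Genes of regulatory and activated T cells lay above it. *Pdcd1*, the checkpoint receptor PD-1, was counted at 0.0955 to 0.73 CPM in CTRL (median 0.269) and 1.15 to 6.93 on day 14 (median 2.41), with log2FC 3.07 ± 0.41 (adjusted p = 2.43e-09). *Ctla4*, a checkpoint receptor of regulatory T cells, was counted at 0.0955 to 1.48 CPM in CTRL (median 0.505) and 0.975 to 7.49 on day 14 (median 2.52), with log2FC 2.33 ± 0.41 (adjusted p = 1.41e-06). *Lef1*, a transcription factor of naive T cells, fell by 0.86 on the log2 scale. Thymus genes touch these values: the 4 thymus genes tested held 3 downregulated and 0 upregulated, the highest level of *Rag1*, which another gene overlaps on the same strand, was 18.6 CPM in CTRL and 0.284 CPM on day 14, and the summed level of the thymus list was 13.2 to 47.4 CPM in CTRL and 7.47 to 19.1 CPM on day 14. The part of thymus tissue in the T cell results was not tested.

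Plasma cell markers, in contrast, were upregulated in 11 of 15 cases and downregulated in 2 (median 0.79). All members with a log2FC above 1 were immunoglobulin or J chain genes. The other upregulated members had a log2FC of 0.23 to 0.79, and the 2 downregulated members were not antibody genes. In 1 of the 15 all day 14 mice lay above all CTRL mice. *Jchain*, which joins secreted antibodies, was counted at 7.05 to 27.2 CPM in CTRL (median 11.3) and 14.1 to 234 on day 14 (median 43.9), with log2FC 2.17 ± 0.56 (adjusted p = 0.000574). *Igha*, the heavy chain of immunoglobulin A, was counted at 29.1 to 137 CPM in CTRL (median 52.3) and 57.1 to 1318 on day 14 (median 149), with log2FC 2.28 ± 0.58 (adjusted p = 0.000468), with the highest value in mouse 2. The groups overlapped for both. Of 13 genes of MHC class II presentation 9 were upregulated and 1 downregulated: *H2-Ab1* was counted at 319 to 418 CPM in CTRL (median 370.3) and 148 to 1117 on day 14 (median 589), with log2FC 0.58 ± 0.16 (adjusted p = 0.00154), the lowest value being that of mouse 8, and *Ctss*, the protease that frees the peptide groove, at 152 to 193 CPM in CTRL (median 177) and 704 to 2136 on day 14 (median 1175), with log2FC 2.80 ± 0.22 (adjusted p = 1.57e-17). Dendritic cell markers divided into 9 up and 4 down of 16, with *Fscn1*, of mature dendritic cells, at a log2FC of 2.09 and *Batf3* at 1.94. Of 7 mast cell, basophil and eosinophil markers 4 were downregulated, among them *Ms4a2* (log2FC -1.62) and *Cma1* (-1.47).

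The epithelial lists separated by cell type. Of 17 AT2 markers 9 were downregulated and 0 upregulated (median -0.59). *Sftpc* (chr14:70520949-70524081, minus strand) had a log2FC of -0.88 ± 0.18 (adjusted p = 2.75e-05), and 10 of the 12 day 14 mice lay below the lowest CTRL mouse. *Sftpa1*, surfactant protein A, was counted at 3392 to 4233 CPM in CTRL (median 3775) and 693 to 3460.1 on day 14 (median 1508), with log2FC -1.19 ± 0.22 (adjusted p = 3.15e-06). *Slc34a2*, the phosphate transporter of AT2 cells, was counted at 1655 to 2347 CPM in CTRL (median 2046) and 533 to 2127 on day 14 (median 1064), with log2FC -0.91 ± 0.16 (adjusted p = 2.23e-06). For *Sftpa1* and *Slc34a2* 11 of the 12 day 14 mice lay below the lowest CTRL mouse. AT1 markers were divided, with 4 upregulated and 9 downregulated of 15: *Ager* (1694 to 2537 CPM in CTRL, median 2008, and 1223 to 2345 on day 14, median 1837, log2FC -0.16 ± 0.12) and *Aqp5* (-0.06 ± 0.10) did not pass the test, *Pdpn* rose (134 to 184 CPM in CTRL, median 150.4, and 199 to 299 on day 14, median 237, log2FC 0.62 ± 0.10, adjusted p = 5.54e-07), and *Igfbp6* (169 to 235 CPM in CTRL, median 195, and 38 to 106 on day 14, median 55, log2FC -1.79 ± 0.22, adjusted p = 9.29e-11) and *Rtkn2* (log2FC -0.96) fell.

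Markers of the transitional alveolar state were upregulated in 12 of 14 cases and downregulated in 0 (median 0.88). *Krt8*, the keratin that gives the state its name, was counted at 119 to 175 CPM in CTRL (median 146) and 179 to 297 on day 14 (median 211), with log2FC 0.60 ± 0.12 (adjusted p = 8.79e-06). *Cldn4*, a claudin of stretched epithelium, was counted at 4.05 to 7.64 CPM in CTRL (median 6.42) and 26 to 102 on day 14 (median 45), with log2FC 3.21 ± 0.35 (adjusted p = 4.85e-12). *Sprr1a*, a small proline-rich protein of squamous cells, was counted at 0 to 1.04 CPM in CTRL (median 0.282) and 5.66 to 16.3 on day 14 (median 7.58), with log2FC 4.55 ± 0.41 (adjusted p = 5.58e-15). The groups did not overlap for any of these. Keratins of airway basal cells were another matter: *Krt17* was at 0 in every CTRL mouse and between 0.0796 and 1.53 CPM on day 14, a mean at least 1.07-fold higher than the limit of 3 counts per library allows in CTRL, and *Krt5* did not pass the test. *Trp63*, the basal cell regulator, was counted at 0.629 to 1.25 CPM in CTRL (median 0.861) and 0.37 to 2.98 on day 14 (median 1.51) and did not pass the test either (log2FC 0.73 ± 0.34).

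Airway epithelium contributed some of the most abundant transcripts that fell. *Scgb1a1*, the club cell secretory protein (chr19:9083636-9087958, minus strand), was counted at 17908 to 24458 CPM in CTRL (median 22821) and 1947 to 14181 on day 14 (median 6364), with log2FC -1.61 ± 0.22 (adjusted p = 3.56e-09). *Cyp2f2*, a cytochrome P450 of club cells, was counted at 2197 to 3013 CPM in CTRL (median 2479) and 153 to 1347 on day 14 (median 533), with log2FC -1.91 ± 0.26 (adjusted p = 4.01e-09). *Cbr2*, a carbonyl reductase of airway and alveolar epithelium (chr11:120729489-120732114, minus strand), was counted at 3629.9 to 4425 CPM in CTRL (median 4216) and 335 to 2145 on day 14 (median 718), with log2FC -2.16 ± 0.28 (adjusted p = 5.97e-10). No day 14 mouse reached the CTRL range for these 3 genes. The secretory list as a whole held 5 downregulated and 4 upregulated genes of 13, the latter including the antimicrobial *Bpifa1* and *Reg3g*, whose levels were carried by few mice: *Bpifa1* was at 1.56 to 15.6 CPM in CTRL (median 5.28) and 0.924 to 296 on day 14 (median 10.3), with 296 CPM in mouse 1 and 145 CPM in mouse 3. Of 14 ciliated cell markers 13 were downregulated and 0 upregulated (median -0.97), from the regulator *Foxj1* (log2FC -0.54) to the microtubule protein *Tppp3* (287 to 404 CPM in CTRL, median 339, and 60.5 to 177 on day 14, median 91.6, log2FC -1.74 ± 0.21, adjusted p = 1.86e-10).

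Most markers of both types of capillary endothelium were lower. Of 12 markers of aerocytes, the large capillary cells of gas exchange, 10 were downregulated and 1 upregulated (median -0.68). Of 12 general capillary markers 7 were downregulated and 1 upregulated (median -0.58). *Gpihbp1* (log2FC 0.06) and *Cd93* (-0.31) were among the 4 general capillary markers that did not pass the test. *Ednrb*, the endothelin receptor of aerocytes, was counted at 126 to 184 CPM in CTRL (median 145) and 33.8 to 84.6 on day 14 (median 65.3), with log2FC -1.30 ± 0.25 (adjusted p = 7.23e-06). *Car4*, carbonic anhydrase 4, was counted at 139 to 214 CPM in CTRL (median 159.6) and 49.8 to 142 on day 14 (median 92.3), with log2FC -0.83 ± 0.16 (adjusted p = 1.38e-05). *Ptprb*, an endothelial phosphatase, was counted at 1227 to 1699.8 CPM in CTRL (median 1393) and 439.7 to 1117 on day 14 (median 927), with log2FC -0.74 ± 0.13 (adjusted p = 7.18e-07). *Sirpa*, in the aerocyte list but also a receptor of macrophages, was the 1 upregulated gene of that list (log2FC 1.17).

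Of 14 arterial, venous and lymphatic markers, 8 were upregulated and 2, both markers of arteries, were downregulated. *Ackr1*, the chemokine-binding receptor of venules, was counted at 0 to 0.395 CPM in CTRL (median 0.183) and 1.64 to 14.1 on day 14 (median 5.5), with log2FC 4.96 ± 0.60 (adjusted p = 1.14e-10); another gene overlaps it on the same strand. *Prox1*, the regulator of lymphatic identity, was counted at 2.62 to 4.64 CPM in CTRL (median 4.01) and 5.37 to 15.6 on day 14 (median 11.6), with log2FC 1.55 ± 0.22 (adjusted p = 1.08e-08). *Mgp*, the matrix Gla protein of arteries and fibroblasts, was counted at 802 to 1015 CPM in CTRL (median 928) and 1761 to 4488 on day 14 (median 2723), with log2FC 1.70 ± 0.17 (adjusted p = 8.24e-14). Tight and adherens junction genes were downregulated in 12 of 21 and upregulated in 2 cases, with occludin (*Ocln*, log2FC -0.52) among the former and *Cldn4* among the latter. Of 16 channels and pumps of alveolar fluid clearance 5 were downregulated, including the chloride channel *Cftr* (log2FC -1.13), and 2 upregulated, including the sodium channel subunit *Scnn1g* (0.56). Lung lineage and mesenchymal transcription factors were divided (11 up and 13 down of 29). Among the 13 that fell were *Foxa1* (45 to 52.2 CPM in CTRL, median 48, and 13.9 to 33.9 on day 14, median 18.8, log2FC -1.19 ± 0.13, adjusted p = 3.04e-12), *Nkx2-1* (log2FC -0.58), *Foxf1* (-0.75) and *Zeb1* (-0.48). The genes given here are from the lower side only, and the 11 that rose are not given beside them.

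Cell cycle genes were raised without exception among those listed: all 36 mitosis genes (median 2.29) and all 30 S phase genes (median 0.91) were upregulated, and in 35 and 20 of them, respectively, all day 14 mice lay above all CTRL mice. *Mki67*, the proliferation antigen (chr7:135689784-135716361, minus strand), was counted at 11.4 to 28.3 CPM in CTRL (median 18.7) and 51 to 142 on day 14 (median 96.9), with log2FC 2.28 ± 0.24 (adjusted p = 8.5e-13). *Top2a*, the topoisomerase of dividing cells, was counted at 9.22 to 22.3 CPM in CTRL (median 16.1) and 39.6 to 115 on day 14 (median 81.2), with log2FC 2.34 ± 0.23 (adjusted p = 1.87e-13). *Cdk1*, the kinase that starts mitosis, was counted at 2.05 to 4.74 CPM in CTRL (median 3.09) and 16 to 29.1 on day 14 (median 21), with log2FC 2.75 ± 0.24 (adjusted p = 2.64e-15). *Mcm5*, a subunit of the replicative helicase, was counted at 12.8 to 18.2 CPM in CTRL (median 17.4) and 21 to 48.3 on day 14 (median 40.2), with log2FC 1.21 ± 0.14 (adjusted p = 4.02e-11). The smallest change of the mitosis list was that of the condensin subunit *Ncaph* (log2FC 0.65).

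Genes of mitosis share promoter letters that are read in dividing cells, the CCAAT box and the cell cycle homology region (CHR, letters TTTGAA). Within 250 bases upstream of the start site, on either strand, CCAAT was found in 22 of the 29 mitosis genes with a promoter entry (75.9%) and in 10133 of 27025 genes in all (37.5%), and TTTGAA in 11 (37.9%) and in 4934 (18.3%). These matches are a description of letters, not of binding. The stretches that hold the motifs of *Mki67* (chr7:135716457-135716582, minus strand) and *Top2a* (chr11:99024192-99024431, minus strand) are shown from the RefSeq sequence of GRCm38.p6, 5′ to 3′, as 2 genes whose promoters hold both motifs, with matches to CCAAT or TTTGAA on either strand in capitals.
Mki67: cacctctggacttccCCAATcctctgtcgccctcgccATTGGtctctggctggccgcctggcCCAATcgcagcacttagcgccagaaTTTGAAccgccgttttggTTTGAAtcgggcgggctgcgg
Top2a: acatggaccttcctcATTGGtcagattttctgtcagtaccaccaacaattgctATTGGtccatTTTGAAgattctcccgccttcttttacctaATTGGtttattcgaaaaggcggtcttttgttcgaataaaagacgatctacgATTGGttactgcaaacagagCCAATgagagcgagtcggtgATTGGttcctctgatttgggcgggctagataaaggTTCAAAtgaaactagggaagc
The *Mki67* stretch ends 78 bases before the start site and holds 3 CCAAT and 2 TTTGAA matches; that of *Top2a* ends 3 bases before it and holds 6 and 2.

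Most p53 target genes were upregulated. Of 26 p53 target genes 17 were upregulated and 4 downregulated (median 0.60), with all day 14 mice above all CTRL mice in 15 and below them in 1. *Cdkn1a* was described above. *Ccng1*, cyclin G1, was counted at 102 to 122 CPM in CTRL (median 114) and 211 to 390.3 on day 14 (median 319.7), with log2FC 1.46 ± 0.08 (adjusted p = 3e-25). *Gdf15*, a stress cytokine, was counted at 0.593 to 1.71 CPM in CTRL (median 1.000) and 3.58 to 11.1 on day 14 (median 8.58), with log2FC 2.87 ± 0.20 (adjusted p = 2.75e-19). *Mdm2*, which degrades p53 itself, was counted at 69 to 82 CPM in CTRL (median 75.5) and 87.5 to 152 on day 14 (median 99.3), with log2FC 0.47 ± 0.06 (adjusted p = 3.24e-10). The mean log2FC of this list varied little between mice, from 0.84 to 1.11. Of 17 CDK inhibitors and secreted genes of senescent cells 14 were upregulated and 2 downregulated; *Cdkn2a*, the locus of p16 and p19, was counted at 0.0928 to 1.13 CPM in CTRL (median 0.415) and 0.833 to 3.86 on day 14 (median 2.1), with log2FC 2.19 ± 0.37 (adjusted p = 5.77e-07), and *Lmnb1*, a lamin that is lost from senescent cells, was higher and not lower on day 14 (log2FC 1.15).

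Interferon-stimulated genes were upregulated in 20 of 29 cases and downregulated in 3, with a median log2FC of 0.48. *Isg15*, a ubiquitin-like modifier, was counted at 5.44 to 10.9 CPM in CTRL (median 7.11) and 12.5 to 40.2 on day 14 (median 22.5), with log2FC 1.68 ± 0.20 (adjusted p = 4.12e-11). *Ifit1*, which binds foreign RNA, was counted at 19.5 to 31.7 CPM in CTRL (median 22.1) and 27.6 to 92.8 on day 14 (median 44.7) with overlapping groups (log2FC 1.22 ± 0.18, adjusted p = 4.32e-08). *Cxcl10*, a chemokine for T cells, was counted at 0.511 to 2.07 CPM in CTRL (median 1.3) and 3.996 to 35.7 on day 14 (median 12.2), with log2FC 3.50 ± 0.39 (adjusted p = 8.72e-12), although a gene on the opposite strand overlaps it and its count is uncertain. *Xaf1* of the same list did not pass the test (log2FC 0.03 ± 0.10).

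The core of the interferon-stimulated response element (ISRE, letters GAAANNGAAA) lay within 250 bases upstream in 11 of the 22 listed genes with a promoter entry (50%) and in 936 of 27025 genes in all (3.46%). The stretches of *Isg15* (chr4:156200860-156200911, minus strand), *Ifit1* (chr19:34640770-34640828, plus strand) and *Cxcl10* (chr5:92349078-92349117, minus strand) are shown as the genes of this list with values above, 5′ to 3′ from RefSeq (GRCm38.p6). Capitals mark matches to GAAANNGAAA on either strand that do not overlap each other.
Isg15: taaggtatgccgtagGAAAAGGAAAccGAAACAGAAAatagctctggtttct
Ifit1: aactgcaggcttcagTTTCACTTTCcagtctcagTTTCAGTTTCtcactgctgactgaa
Cxcl10: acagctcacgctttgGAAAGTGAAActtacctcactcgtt
*Isg15* and *Ifit1* each hold 2 such matches and *Cxcl10* 1 in this window, and the 3 genes differ in the size of their response as given above. In *Isg15* a further match spans the lower-case cc, overlaps both marked ones and was not counted.

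Metabolic genes moved by smaller steps. Cytochrome P450 and flavin monooxygenase genes were the exception, with 13 downregulated and 2 upregulated of 18 (median -1.22), 10 of them below the CTRL range in all day 14 mice. *Cyp4b1*, of capillary and club cells, was counted at 617 to 893 CPM in CTRL (median 703) and 116 to 343 on day 14 (median 222), with log2FC -1.72 ± 0.23 (adjusted p = 1.42e-09). *Fmo1* was counted at 433 to 759 CPM in CTRL (median 563) and 130.1 to 242 on day 14 (median 196), with log2FC -1.56 ± 0.19 (adjusted p = 5.42e-11). *Por*, the reductase that supplies all microsomal P450 enzymes with electrons, was counted at 382 to 471 CPM in CTRL (median 420.1) and 152 to 288 on day 14 (median 191), with log2FC -1.05 ± 0.13 (adjusted p = 7e-11). *Cyp7b1*, an oxysterol hydroxylase, rose (log2FC 2.10). Of 25 nuclear genes of the respiratory chain 21 were upregulated and 1 downregulated, but with a median of only 0.31, and of 18 glycolysis genes 14 and 2 (median 0.43), led by *Eno1* (log2FC 1.08) and *Gapdh* (0.92).

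Lipid genes split. Of 20 cholesterol synthesis genes 8 were upregulated and 2 downregulated, with the regulator *Srebf2* at a log2FC of -0.33. Fatty acid and surfactant lipid genes held 4 upregulated and 9 downregulated of 20; *Scd1*, the stearoyl-CoA desaturase, was counted at 797 to 1910.3 CPM in CTRL (median 1266) and 1538 to 5206 on day 14 (median 2353), with log2FC 0.998 ± 0.19 (adjusted p = 8.43e-06), and *Acoxl* fell by 1.42 on the log2 scale. Antioxidant and NRF2 target genes (13 up and 7 down of 26) included the haem oxygenase gene *Hmox1* (23.1 to 37.5 CPM in CTRL, median 30.02, and 64.6 to 158 on day 14, median 75.4, log2FC 1.65 ± 0.20, adjusted p = 6.03e-11) and the cystine transporter *Slc7a11* (log2FC 2.51) on the upper side and *Gstm1* (310.5 to 419 CPM in CTRL, median 334, and 74.8 to 199.8 on day 14, median 126, log2FC -1.38 ± 0.17, adjusted p = 7.34e-11) on the lower. Chaperones of the endoplasmic reticulum and genes of the unfolded protein response were upregulated in 16 of 26 and downregulated in 3 cases, with the chaperone *Hspa5* at a log2FC of 0.50 and *Herpud1* at -0.79.

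Circadian clock genes were mostly lower: 12 of 16 were downregulated and 4 upregulated (median -0.91). *Dbp*, an output gene of the clock, was counted at 138 to 356 CPM in CTRL (median 255) and 18.8 to 147 on day 14 (median 90.6), with log2FC -1.56 ± 0.28 (adjusted p = 1.91e-06). *Nr1d2*, a repressor of the clock, was counted at 243 to 330.0 CPM in CTRL (median 279) and 98.1 to 186 on day 14 (median 143), with log2FC -0.95 ± 0.10 (adjusted p = 4.36e-12). *Arntl*, the activator that peaks in the opposite phase, was counted at 2.76 to 5.57 CPM in CTRL (median 3.45) and 4.02 to 40.9 on day 14 (median 8.34), with log2FC 1.60 ± 0.28 (adjusted p = 1.39e-06), with the groups overlapping. The sources used here give no time of day for the sampling, and a difference in sampling time cannot be told apart from an effect of the treatment. Genes of prostaglandin, leukotriene and lysophosphatidic acid metabolism held 18 upregulated and 7 downregulated of 31: *Ptges*, a prostaglandin E synthase, was counted at 18.4 to 33 CPM in CTRL (median 28.3) and 42.1 to 111 on day 14 (median 58.1), with log2FC 1.26 ± 0.14 (adjusted p = 9.07e-12), while the inducible cyclooxygenase gene *Ptgs2* did not pass the test (log2FC -0.37 ± 0.20) and *Enpp2*, which encodes autotaxin, fell by 0.59 on the log2 scale.

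Lists of neighbouring tissue varied between libraries of both groups. The summed level of the heart muscle list was 111 to 382 CPM in CTRL and 59.97 to 510.2 CPM on day 14, with 2 upregulated and 1 downregulated genes of 12, among them the myosins *Myh7* (22.3 to 36.6 CPM in CTRL, median 28.3, and 5.49 to 18.3 on day 14, median 8.28, log2FC -1.62 ± 0.24, adjusted p = 4.19e-08) and *Myh6* (log2FC 0.83 ± 0.81), the former below the CTRL range in all day 14 mice and the latter not past the test. Fat markers summed to 8.82 to 60.4 CPM in CTRL and 3.68 to 32.5 CPM on day 14 (0 up and 2 down of 7), and skeletal muscle markers to 3.8 to 7.4 and 3.77 to 12.6 CPM (0 and 0 of 3). Schwann cell and neuron markers included 3 upregulated and 3 downregulated genes of 8, with the neuronal tubulin gene *Tubb3* at a log2FC of 2.96.

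Against BLEO day 7 (n = 10), 1538 genes were higher on day 14 (9.48%) and 1225 were lower (7.55%). The division depends on the scaling, since with library size alone 1202 were higher and 1631 lower. Of the former, 1331 were also upregulated against CTRL, and of the latter 959 were also downregulated; both comparisons use the same day 14 mice. Matrix genes formed a large part of the listed genes that were higher than on day 7: 11 of 15 fibrillar collagens, 19 of 22 basement membrane genes, 17 of 25 cross-linking genes and 12 of 23 matricellular genes. *Sparc* was counted at 2379.5 to 3054 CPM on day 7 (median 2629.9) and 3615 to 5702 on day 14 (median 4467), with log2FC 0.81 ± 0.10 (adjusted p = 9.01e-08). *Col1a1* was counted at 692 to 1525 CPM on day 7 (median 944) and 1029.7 to 4465 on day 14 (median 1969.9), with log2FC 1.22 ± 0.31 (adjusted p = 0.00413). *Spp1* was counted at 320.4 to 827 CPM on day 7 (median 585) and 826 to 7806 on day 14 (median 2669), with log2FC 2.58 ± 0.47 (adjusted p = 8.33e-05). *Ankrd34b*, an ankyrin repeat protein, was counted at 0.176 to 1.58 CPM on day 7 (median 0.652) and 3.36 to 9.18 on day 14 (median 5.67), with log2FC 3.11 ± 0.36 (adjusted p = 1.23e-08). The genes with the smallest adjusted p in this direction also included *Timp2* (log2FC 0.39) and the latent TGF-beta binding protein *Ltbp3* (0.59).

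Lower than on day 7 were 10 of 14 ciliated cell markers, 9 of 17 AT2 markers, 14 of 20 cholesterol synthesis genes, 11 of 18 P450 and flavin monooxygenase genes and 9 of 26 p53 targets. *Sqle*, the squalene epoxidase of cholesterol synthesis, was counted at 70.9 to 138 CPM on day 7 (median 85.6) and 38.5 to 74.9 on day 14 (median 56.5), with log2FC -0.60 ± 0.10 (adjusted p = 2.22e-05). *Krt8* was counted at 220.5 to 392 CPM on day 7 (median 292) and 179 to 297 on day 14 (median 211), with log2FC -0.41 ± 0.11 (adjusted p = 0.00812). *Ccng1* was counted at 358 to 470.0 CPM on day 7 (median 421) and 211 to 390.3 on day 14 (median 319.7), with log2FC -0.40 ± 0.08 (adjusted p = 0.000154). *Krt8* and *Ccng1* thus stood above CTRL and below day 7, and *Sqle* stood below day 7 without passing the test against CTRL. The smallest adjusted p in this direction belonged to the protease *Tmprss4* (log2FC -0.72), the growth factor carrier *Fgfbp1* (-1.25), the endothelial *Esm1* (-1.40), the glutathione transferase *Gstk1* (-0.67) and *Cth* (-0.89). Neutrophil markers were higher than on day 7 in 8 of 13 cases with mouse 8 and in 2 without it. Of the fat markers, 6 of 7 were lower than on day 7, when their summed level ran from 8.19 to 812 CPM between mice.

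**Figure D4:**
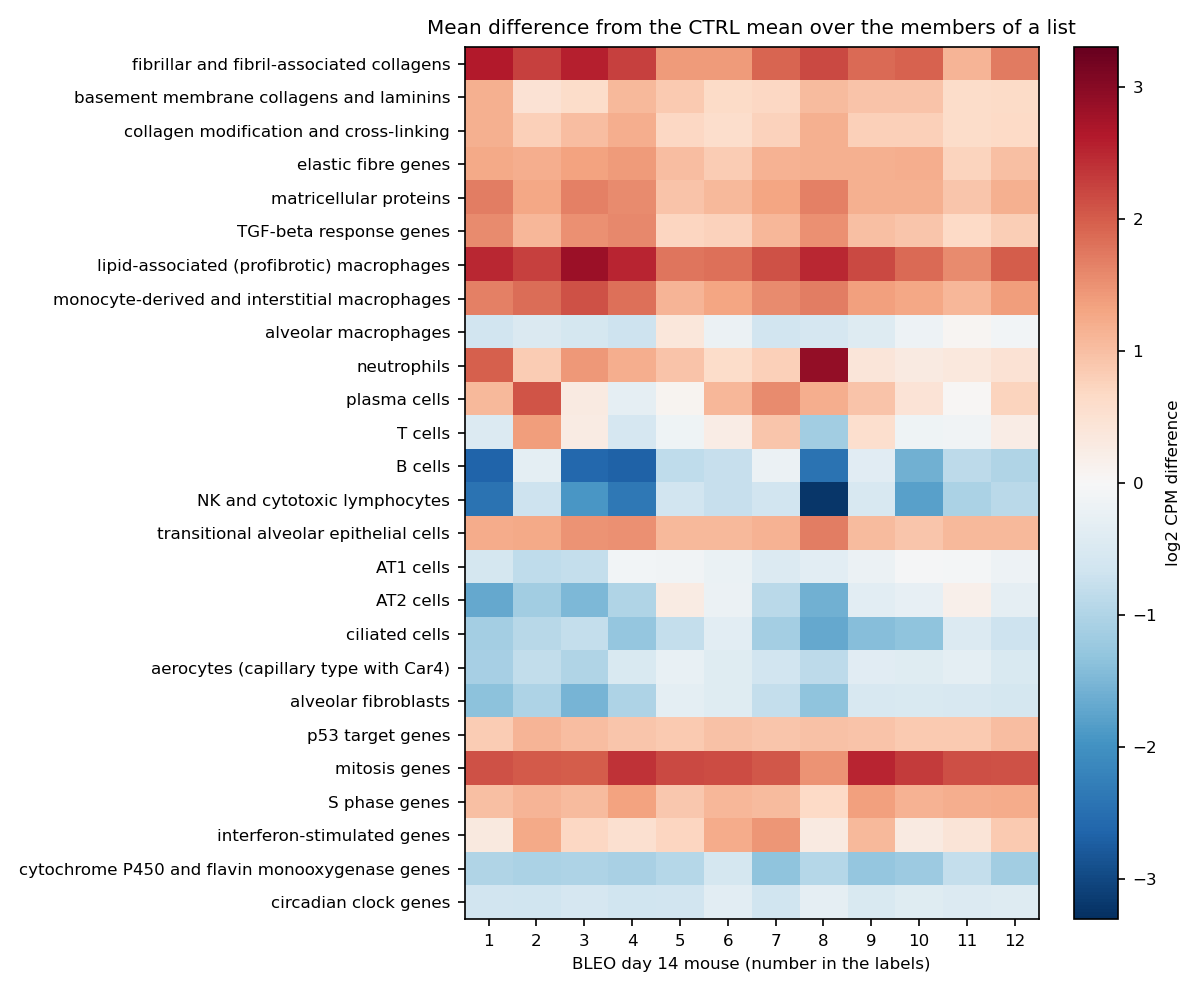
Columns are the 12 day 14 mice, rows 26 of the gene lists, and the colour is the mean over the genes tested of a list of the difference between that mouse and the CTRL mean (log2 CPM; red higher, blue lower). Rows such as the p53 targets have nearly the same colour in every mouse, whereas the neutrophil, B cell and NK cell rows differ, with mouse 8 highest for neutrophils (2.90) and lowest for NK cells (-3.22).

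Against BLEO day 21 (n = 12), 94 genes were higher on day 14 (0.579%) and 73 were lower (0.45%), with 2769 genes at an unadjusted p below 0.05. These counts rest on mouse 8: without it 4 genes were higher and 1 lower, and in a fit to the 2 groups alone 0 and 0 genes passed. *A2m*, the protease inhibitor alpha-2-macroglobulin, was counted at 1.76 to 18.9 CPM on day 14 (median 4.33) and 0.408 to 3.18 on day 21 (median 1.71), with log2FC 2.11 ± 0.36 (adjusted p = 0.000849). *Lpar1*, a receptor for lysophosphatidic acid, was counted at 27.1 to 75 CPM on day 14 (median 47.4) and 25.3 to 39.9 on day 21 (median 29.4), with log2FC 0.69 ± 0.12 (adjusted p = 0.000849). *Cd177* was counted at 9.94 to 459 CPM on day 14 (median 41.9) and 5.3 to 39.5 on day 21 (median 15), with log2FC 2.33 ± 0.41 (adjusted p = 0.000957). The ranges of the groups overlapped for each of these genes. *Cd163*, a haemoglobin scavenger receptor (log2FC 1.36), and *Doc2b* (2.31), likewise higher than on day 21, lost their calls without mouse 8, as did *Cdh16* (-1.18), *Fzd6* (-0.27), *Gm19990* (-0.77) and *Gm43196* (-0.96) among the lower genes. The 5 genes that passed without mouse 8 were *A2m*, *Lpar1*, *Cd177*, *Rufy4* (log2FC -1.14 in the fit with all mice) and the glutamate receptor subunit gene *Gria3*, the last named after its value was seen.

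*Col1a1* had a log2FC of 0.39 ± 0.29, *Eln* of 0.76 ± 0.33 and *Spp1* of 0.49 ± 0.41 between day 14 and day 21, and none of the 3 passed the test. Among the AT2 markers *Sftpa1* (log2FC -0.77 ± 0.21, adjusted p = 0.0468) and *Slc34a2* (log2FC -0.61 ± 0.16, adjusted p = 0.0364) were lower on day 14, calls that were lost without mouse 8. *Cdkn1a*, with log2FC 0.58 ± 0.13, adjusted p = 0.0149, was higher on day 14 than on day 21 with mouse 8 and not without it.

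The 12 day 14 mice differed in how far they had moved from CTRL. The mean shift from CTRL to day 14 over the 14038 genes with a mean level above 1 log2 CPM was set at 100%. Along it, single mice lay between 68.2% (mouse 11) and 129.7% (mouse 8), and the CTRL mice between -6.4 and 3.6%. Listed genes above that level enter the shift, so the order of the mice in a list is not independent of it. Mice 11, 5 and 6 had the smallest shift and also the lowest mean log2FC of the fibrillar collagens (1.12, 1.40 and 1.41), while mouse 1 had the highest (2.62). AT2 markers ran the other way, with a mean log2FC above 0 in mice 5 (0.28) and 11 (0.17) and -1.68 in mouse 1. The mitosis genes did not follow this order: their mean log2FC was lowest in mouse 8 (1.48) and highest in mouse 9 (2.52).

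Immune lists separated the same mice in other ways. The B cell markers had a mean log2FC between -2.43 and -2.67 in mice 1, 3, 4 and 8 and between -0.20 and -1.59 in the others. Mouse 8 had the lowest mean log2FC of the T cell (-1.14) and MHC class II (-0.80) lists and the highest of the neutrophil list (2.90), and mouse 2 the highest of the T cell (1.38) and MHC class II (1.27) lists.

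Relations between genes across the 12 day 14 mice were computed for 6 pairs of genes, with two-sided permutation tests (100000 resamples) and p-values adjusted over the 6 pairs. *Col1a1* and *Sftpc* were inversely related (r = -0.924, p = 5e-05, adjusted p = 0.0003; rho = -0.923, p = 8e-05, adjusted p = 0.00048), and the relation held without the 2 mice farthest from the median *Col1a1* level (r = -0.872, adjusted p = 0.00336). *Col1a1* and *Spp1* were positively related (r = 0.893, p = 0.0002, adjusted p = 0.0006; rho = 0.853, p = 0.00076, adjusted p = 0.00228; r = 0.881 without the 2 mice, adjusted p = 0.00336). With library size as the scaling, r was -0.925 and 0.882. CPM values are shares of 1 library, and the part of this in the relations was not tested.

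The other 4 pairs did not pass. *Sftpc* and *Krt8* had r = -0.395 (p = 0.203, adjusted p = 0.263; rho = -0.406, p = 0.193, adjusted p = 0.289), and without the 2 farthest mice r = -0.688 (adjusted p = 0.0563). *Col1a1* and *Mki67* had r = -0.384 (p = 0.219, adjusted p = 0.263; rho = -0.231, p = 0.472, adjusted p = 0.567; r = -0.42 without 2 mice), and *Sftpc* and *Cd79a* r = 0.562 (p = 0.0592, adjusted p = 0.118; rho = 0.413, p = 0.186, adjusted p = 0.289; r = 0.373 without 2 mice). For *Krt8* and *Ager* r was 0.0541 (p = 0.866, adjusted p = 0.866; rho = -0.154, p = 0.635, adjusted p = 0.635), and its sign turned without the 2 mice (r = -0.206) and with library size as the scaling (r = -0.0655).

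**Figure D5:**
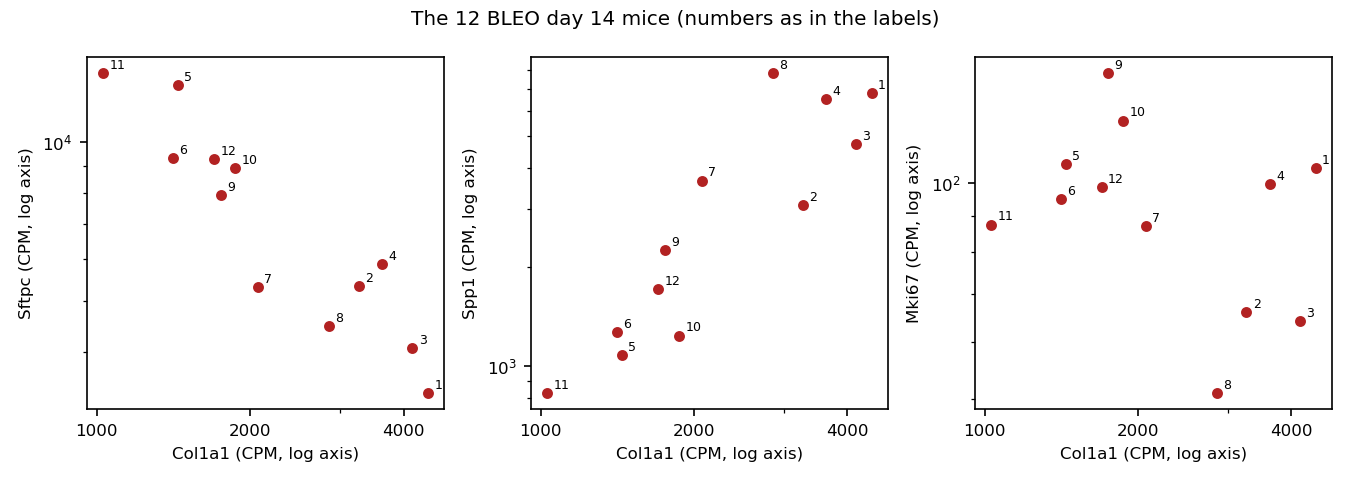
Each point is 1 of the 12 day 14 mice, numbered as in the labels, with *Col1a1* on the horizontal axis and *Sftpc*, *Spp1* or *Mki67* on the vertical axis, all in CPM on log axes. *Sftpc* falls along the *Col1a1* axis (r = -0.924), *Spp1* rises (r = 0.893), and *Mki67* shows no clear order (r = -0.384).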

How the data were processed

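Total RNA of the inferior lobe was poly(A)-selected, made into directional libraries and sequenced from 1 end. Per the labels the authors aligned the reads with STAR 2.7.0f to GRCm38 with Ensembl release 96 and deposited raw counts per gene. The counting program and its strand setting are not given in the sources used here. The deposited table holds 55536 gene identifiers, of which 38610 had a count, for 75 libraries, and all identifiers matched GENCODE M21. Groups were taken from the treatment and time labels.

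Here the counts were analysed with R 4.3.3, edgeR 4.0.16 and limma 3.58.1. Genes were kept with filterByExpr, scaled with TMM factors and fitted with 7 group means over all 75 mice, so that every comparison shares 1 estimate of the spread. The quasi-likelihood F test was used with Benjamini-Hochberg adjustment (threshold 0.05). The SE is the size of the log2FC divided by the root of F. CPM use the library totals times the TMM factors, log2 CPM have a prior count of 2, and RPKM were computed from CPM and exon length. The lowest chi-square per degree of freedom among 111 pairs of mice within a group was 4.11, so no library was a repeat of another. The labels do not say which mice shared a cage or a day of dosing, and p-values measure the spread between mice. The limit of 3 counts per library covers counting error only.

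The labels' words and the methods of the study defined the comparisons; day 7 and day 21 were compared with day 14 in the same fit. The gene lists and the members were chosen with earlier results of these data known. Named genes are the first 3 of each list, its 4 smallest and its largest p, the genes with the largest changes, levels, spread and smallest p over all genes, and any member of lists with 8 or fewer genes tested; some genes that meet this rule are not reported here. The pipeline was tested on simulated data with 200 changed genes. DESeq2 1.42.0, other scalings and filters, a fit to the groups compared and the replicate block were tried as alternatives.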

Additional observations from a re-analysis of the deposited data

Results flagged for a closer look

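In 15 of 249 named genes that were checked, 1 CTRL mouse lay far from the other 9. The measure was its gap to the nearest mouse over the whole range of log2 CPM. Chance gives such a gap in about 1 of 20 groups. The mouse lay above the others for *Arg1* (gap 0.566 of the range), *Chil3* (0.5), *Cyp4b1* (0.515), *Hba-a1* (0.476) and *Snai1* (0.476), each time CTRL mouse 2, for *Cyp7b1* (0.607, mouse 8) and for *Ifit1* (0.552, mouse 5). It lay below them for *Chl1* (0.497), *Cnn1* (0.639), *Doc2b* (0.516), *Il1rn* (0.614), *Msln* (0.679), *Myh6* (0.619), *Psrc1* (0.506) and *Xaf1* (0.473). The *Cnn1* value was that of mouse 2 as well.

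The effect of BLEO against the same CTRL mice differed between day 14 and day 7 in 2763 genes. Among those with the smallest p were *Ankrd34b* (log2FC 3.11), *Ltbp3* (0.59), *Sparc* (0.81) and *Timp2* (0.39), higher on day 14, and *Cth* (-0.89), *Esm1* (-1.40), *Fgfbp1* (-1.25), *Gstk1* (-0.67) and *Tmprss4* (-0.72), lower on day 14. Between day 14 and day 21 the effect differed in 167 genes, 5 of them without mouse 8. By smallest p these were *A2m* (2.11), *Cd163* (1.36), *Cd177* (2.33), *Doc2b* (2.31) and *Lpar1* (0.69), higher on day 14, and *Cdh16* (-1.18), *Fzd6* (-0.27), *Gm19990* (-0.77), *Gm43196* (-0.96) and *Rufy4* (-1.14), lower on day 14.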

How the results depend on the processing

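Against CTRL, the counts of genes that passed stayed within 1.5 times the reported number under other scalings, DESeq2, other filters, a fit to the 22 mice compared and without mouse 8 (an alternative chosen after seeing the data, 5149 up and 4698 down). Requiring an absolute log2FC of 0.5 as well left 5030 genes, 2639 up and 2391 down. The side with more genes turned under 3 settings: 4961 up and 5097 down with library size alone, 4825 and 5224 with upper quartile factors, and 4160 and 4265 among 13099 genes with at least 10 counts in every mouse. Against day 7, 1319 genes remained above a log2FC of 0.5, and upper quartile factors gave 1302 higher and 1543 lower. Against day 21, where 167 genes passed, DESeq2 gave 311, no filter 85, a log2FC of at least 0.5 gave 103, the mice of the 2 groups alone 0 (1738 at an unadjusted p below 0.05), and the fit without mouse 8 gave 5. The cause was not tested. For *Krt8* and *Ager* the sign of r turned to -0.0655 with library size as the scaling and to -0.206 without the 2 farthest mice.

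Of 249 named genes that were checked against CTRL, 241 kept their direction and their side of the threshold under every alternative in which they were tested. *Bpifa1*, *Fzd6*, *Pi16*, *S100a8* and *Tmprss4* lost their call under at least 1 alternative, and *Fabp4*, *Krt5* and *Trp63* gained one, none with a change of direction.

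Mice of different groups share replicate numbers in the labels. Over 10 numbers the deviations of the CTRL and the day 14 mouse correlated between -0.11 and 0.34 (median 0.02). Of the 10, 1 was above 0.1 and 1 mouse correlated best with its own number, both being number 10. This check holds 1 mouse per group and number, and whether mice with the same number were handled together was not tested. With the replicate block 5267 genes were upregulated and 4992 downregulated against CTRL, 1820 higher and 1533 lower than day 7, and 109 differed from day 21.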
